A study of Mus musculus with 35 samples.

Results

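The libraries described are the 6 from control mice at day 5: 3 from lungs taken 5 days after naphthalene and 3 from lungs of untreated mice with the same genotype and day label. They were chosen by their titles and make up 6 of the 35 libraries of the series. Control mice carry loxP sites in both copies of Rora (RORaf/f), and the label names no Cre, so the gene is intact unless a recombinase is present. The design text gives the mice as 14 days old and gives no age for each day label. RNA came from homogenised whole lung, was made into libraries with an mRNA kit and was counted per gene; the labels name no dose or route of naphthalene. Libraries are taken as separate mice, although nothing in the labels says that replicates came from separate animals, so p-values measure the spread between these samples. Where the text sets day 5 against other groups, these are control mice at day 2 or 7 after naphthalene with their untreated mice, and KO mice (RORaf/fIl7riCre, in which Cre driven from the Il7r locus acts on Rora) at day 5 with theirs.

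Naphthalene is turned into a toxic product by the cytochrome P450 enzymes of club cells, the secretory cells of the small airways, and kills them within the first days. Spared secretory cells then divide, spread over the bare airway, and form club cells and multiciliated cells again. A cell becomes multiciliated when Mcidas (multicilin) and E2f proteins switch on a set of genes that build many centrioles at once, among them Ccno and Deup1, and Foxj1 and Rfx factors then drive the parts of the moving cilium.

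The promoters below belong to Mcidas, Cdc20b, Foxn4, Ccna1 and Ccno, 5 genes of multiciliation for which the effect of naphthalene differed between day 5 and day 2 (Ccno with all libraries, the other 4 also without untreated replicate 1). Sequences are from RefSeq on build GRCm38.p6, 250 bases before to 50 after each gene's start, written 5′ to 3′ along the gene. Capitals mark the RFX half-site GTTGCC, which appears as GGCAAC where it lies on the other strand.

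Mcidas, chr13:112993618-112993917, plus strand: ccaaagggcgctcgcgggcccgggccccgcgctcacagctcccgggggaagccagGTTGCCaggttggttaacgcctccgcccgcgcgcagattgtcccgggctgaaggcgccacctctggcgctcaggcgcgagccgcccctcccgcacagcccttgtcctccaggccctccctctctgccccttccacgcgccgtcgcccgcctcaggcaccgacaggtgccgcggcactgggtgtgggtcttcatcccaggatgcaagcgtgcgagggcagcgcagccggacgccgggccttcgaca

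Cdc20b, chr13:113035129-113035428, plus strand: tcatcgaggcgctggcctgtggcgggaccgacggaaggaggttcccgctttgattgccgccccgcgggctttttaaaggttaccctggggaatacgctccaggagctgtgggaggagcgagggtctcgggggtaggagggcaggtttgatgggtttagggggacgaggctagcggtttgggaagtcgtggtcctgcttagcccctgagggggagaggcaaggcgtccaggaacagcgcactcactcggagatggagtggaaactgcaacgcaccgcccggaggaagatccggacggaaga

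Foxn4, chr5:114273712-114274011, minus strand: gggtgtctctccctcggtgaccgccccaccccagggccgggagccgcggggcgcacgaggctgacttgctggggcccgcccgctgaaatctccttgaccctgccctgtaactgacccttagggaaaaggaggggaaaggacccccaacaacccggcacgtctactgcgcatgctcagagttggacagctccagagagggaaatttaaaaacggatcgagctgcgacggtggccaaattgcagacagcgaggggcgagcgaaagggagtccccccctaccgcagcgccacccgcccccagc

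Ccna1, chr3:55055006-55055305, minus strand: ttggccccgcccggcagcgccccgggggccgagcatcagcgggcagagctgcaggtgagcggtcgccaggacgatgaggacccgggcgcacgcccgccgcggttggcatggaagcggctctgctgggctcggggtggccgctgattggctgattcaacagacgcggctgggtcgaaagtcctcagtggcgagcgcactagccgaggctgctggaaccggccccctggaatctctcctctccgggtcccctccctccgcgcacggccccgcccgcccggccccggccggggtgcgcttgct

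Ccno, chr13:112987552-112987851, plus strand: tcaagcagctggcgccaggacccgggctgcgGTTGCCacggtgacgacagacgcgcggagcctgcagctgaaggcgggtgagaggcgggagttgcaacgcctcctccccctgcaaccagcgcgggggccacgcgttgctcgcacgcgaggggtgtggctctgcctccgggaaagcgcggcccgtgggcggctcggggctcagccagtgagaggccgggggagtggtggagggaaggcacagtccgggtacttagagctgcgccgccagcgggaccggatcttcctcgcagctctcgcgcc

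Mcidas, Ccno and Cdc20b all lie on the plus strand of chromosome 13. The half-site, searched on both strands, was in the windows of Mcidas and Ccno once each and not in those of Cdc20b, Foxn4 and Ccna1. Of 27025 promoters, 12.7% held it, against 12 of the 24 matched promoters (50%) among the 34 genes of the ciliogenesis and motile cilium lists and 5 of the 8 matched promoters (62.5%) of their members called at day 5. The FOXJ1 core GTAAACA was in 3.55% of all promoters, in 12.5% of those of the lists and in none of the 8. The E2F site TTTGGCGC was in 0.537% of all promoters and in none of the 24. A match describes letters in a window and not a bound site.

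At day 5 the lungs of naphthalene mice had less of the club cell secretoglobin Scgb1a1 than untreated lungs, more of a few airway secretory and injury transcripts, and more of several genes that start multiciliation. On the log2 scale Scgb1a1 fell by 2.08, Cd177 rose by 4.51, Agr2 by 3.29, Cxcl17 by 3.04, Scd1 by 2.49 and Mcidas by 2.39. Calls rest on edgeR's quasi-likelihood test with a Benjamini-Hochberg adjusted p under 0.05. Changes are log2(naphthalene over untreated) with standard errors (SE), and levels are counts per 1e6 counts of the library (CPM), which compare a gene between libraries and not genes with each other. In whole lung RNA, fewer cells of a type and less RNA per cell cannot be told apart.

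With all libraries, 492 of 20606 genes were called (2.39%), 227 higher (1.1%) and 265 lower (1.29%) in naphthalene lungs. Without replicate 1 of the untreated mice, 23 of 20558 were called (0.112%), 19 higher (0.0924%) and 4 lower (0.0195%), and all 23 were also called with it. Of the 469 calls lost, 461 kept their sign, 4 could not be fitted, and 4 genes called lower took the opposite sign. Leaving out untreated replicate 3 in its place gave 3544 calls for the naphthalene effect at day 5 in control mice, and leaving out any other of the 6 libraries gave 61 to 154. The 3 naphthalene libraries did not overlap the 3 untreated ones for 5598 genes, 27.2% of those tested, with the naphthalene libraries all above in 13.5% and all below in 13.6%.

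Untreated replicate 1 stood apart by a block of transcripts that includes several markers of microglia, the macrophages of the brain. P2ry12, a purinergic receptor of microglia, was at 2.40, 1.70 and 1.83 CPM in naphthalene lungs, against 159, 2.46 and 2.13 CPM in untreated lungs. Siglech was at 0.632, 0.667 and 0.315 CPM in naphthalene lungs, against 39.5, 0.562 and 0.320 CPM in untreated lungs. In both genes the untreated group overlapped the naphthalene group apart from that 1 library. Trem2 (81.2 CPM) and Gpr34 (79.2 CPM) also stood far above the other 5 libraries in it. Not every microglia marker did. Of 11 on the list, 9 had log2 changes below 0, and Tmem119 (0.38) and Olfml3 (0.74) lay above 0 and did not pass. Tmem119 had 1566, 1229 and 2599 reads in untreated replicates 1, 2 and 3, and Olfml3 had 2298, 1254 and 2925. In all, 82 genes had at least 5 CPM there and more than 2 times the highest of the other 34 libraries, of which 40 are pseudogenes or gene models. Summed over the microglia list, naphthalene libraries held 383 to 440 CPM, against 966, 192 and 324 CPM in untreated replicates 1, 2 and 3. A list of other brain cell markers summed to 48.2 to 56.0 CPM in naphthalene libraries and to 53.7, 43.1 and 49.6 CPM in the untreated ones.

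The untreated group differed within itself in another way. Untreated replicates 1 and 2 lay at -36.7 and -40.9 on the first principal component of all 35 libraries, away from the naphthalene libraries (0.5 to 1.9) and untreated replicate 3 (-2.4). The nuclear RNA Neat1 was at 902 to 1323 CPM in naphthalene libraries, against 2540, 2200 and 1011 CPM in untreated replicates 1, 2 and 3. Log2 CPM of untreated replicate 3 correlated at 0.991 with each naphthalene library and at 0.973 and 0.981 with the other untreated ones (across genes, which are not independent). Mitochondrial transcripts were 1.32% to 1.62% of the counts in naphthalene libraries and 0.917% to 1.12% in untreated ones. Totals ran from 15.6 to 18.5 M counts in naphthalene libraries and from 13.1 to 19.1 M in untreated ones, so 1 read was worth 0.0524 to 0.0727 CPM. The library names carry the letter b for all 3 naphthalene libraries and o or f for the untreated ones. The labels do not explain these letters, and they cannot be told apart from treatment. Sex was read from Xist and the Y-linked gene Ddx3y and was not balanced. Naphthalene replicates 1 and 3 were male and replicate 2 female, while untreated replicates 1 and 3 were female and replicate 2 male. The main fit holds no sex term.

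**Figure D1:**
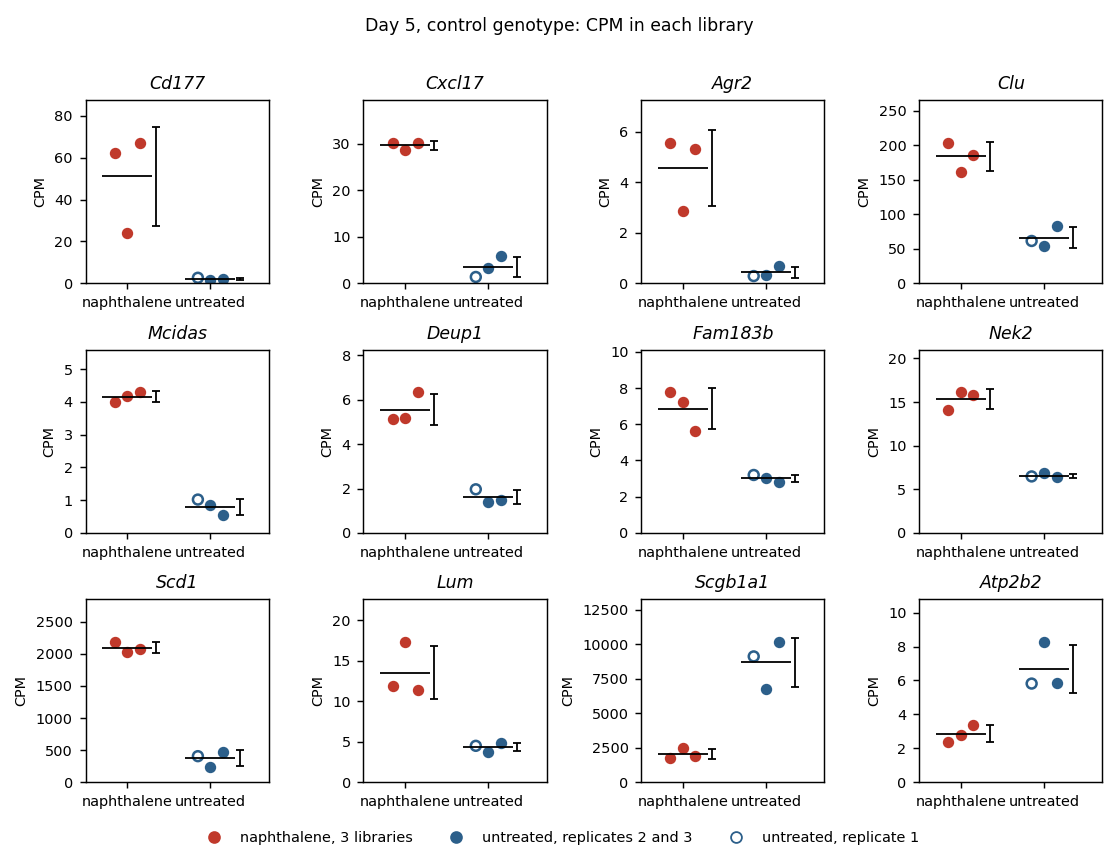
CPM of 12 genes called with and without untreated replicate 1 in each day 5 control library, naphthalene left and untreated right, each axis from 0. Lines are means, bars the SD (n = 3 each), and the open point is untreated replicate 1. Groups do not overlap in any panel, and the open point lies near the other untreated points.

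Club cell genes split at day 5. Scgb1a1 (ENSMUSG00000024653), the main secretory protein of club cells, was at 1805, 2489 and 1892 CPM in naphthalene lungs, against 9134, 6745 and 10212 CPM in untreated lungs. Every naphthalene lung was below every untreated one, a log2 change of -2.08 ± 0.27 (SE, edgeR adjusted p = 0.000123) and of -2.04 without untreated replicate 1. Of the 20 club cell genes, 2 fell and none rose, with the same counts without replicate 1. The list's median was -0.047, against -0.009 over all genes tested. Cyp2f2, the P450 that activates naphthalene in mouse airways, had a log2 change of -0.52 (adjusted p = 0.243), and Cbr2, a carbonyl reductase, one of -0.29 (adjusted p = 0.469). Scgb3a2, another secretoglobin, was at 702, 887 and 690 CPM in naphthalene lungs, against 333, 379 and 600 CPM in untreated lungs. Its change of 0.80 ± 0.35 did not pass the test (adjusted p = 0.165), while at day 2 it had fallen by 1.89. The day 5 minus day 2 difference for Scgb3a2 was 2.69 (adjusted p = 0.0178), and 2.53 (adjusted p = 0.0646) without replicate 1. For Scgb1a1 that difference was 1.53 (adjusted p = 0.0693).

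The largest increase was Cd177, a surface protein known from neutrophils. It was at 62.0, 24.1 and 67.2 CPM in naphthalene lungs, against 2.69, 1.83 and 2.19 CPM in untreated lungs. All naphthalene lungs were far above the untreated ones, and naphthalene replicate 2 was the lowest of the 3. The log2 change was 4.51 ± 0.43 (adjusted p = 2.62e-07) and 4.66 without replicate 1. None of the 13 neutrophil genes tested was called, against 2.39% of all genes. Of the 13, 8 had values above 0 and 5 below (median 0.103). Without replicate 1, 10 were above 0 and 3 below (median 0.35). S100a8, a calcium-binding protein abundant in neutrophils, changed by -0.12 and Ly6g, a surface marker of theirs, by 0.31, neither of which passed. Summed over the neutrophil list, naphthalene libraries held 228 to 354 CPM and untreated ones 198 to 261 CPM.

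Of 21 airway secretory and goblet cell genes, 5 rose and none fell, with 3 of them called without replicate 1, and the median was 0.98 (0.99 without it). Agr2, a disulfide isomerase needed for mucin folding, was at 5.57, 2.85 and 5.29 CPM in naphthalene lungs, against 0.291, 0.351 and 0.693 CPM in untreated lungs. Its log2 change was 3.29 ± 0.57 (adjusted p = 0.00279). Cxcl17, a chemokine of mucosal surfaces, was at 30.2, 28.6 and 30.03 CPM in naphthalene lungs, against 1.38, 3.37 and 5.81 CPM in untreated lungs. The 3 naphthalene values were nearly equal, and the change was 3.04 ± 0.43 (adjusted p = 0.000344). Aoc1, the histamine-degrading diamine oxidase, rose by 2.37 ± 0.36 (adjusted p = 0.000706). The membrane mucin Muc4 rose by 1.25 and the uroplakin Upk3a by 2.63, both at an adjusted p of 0.00433 with all libraries and of 0.0622 without replicate 1. The gel-forming mucins did not pass, with Muc5b at 0.95 and Muc5ac at 0.50 on the log2 scale. Neither did Spdef (0.83), a transcription factor of goblet cells, nor the neutrophil and epithelial lipocalin Lcn2 (1.52, adjusted p = 0.0582).

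Genes of injured and transitional epithelium, such as keratins and growth factors, were a further group. Of 18, 4 rose at day 5 (2 without replicate 1) and 13 rose at day 2, where 2.57% of all genes were called higher and 1.18% lower. Areg alone of the 18 passed the test of the difference between the days, which called 0.199% of all genes. Medians were 0.65 at day 5 and 1.37 at day 2, against -0.009 and -0.042 over all genes. Sprr1a, a cross-linked envelope protein of stressed epithelium, was at 2.02, 2.00 and 2.57 CPM in naphthalene lungs, against 0.436, 0 and 0.107 CPM in untreated lungs. All naphthalene lungs were higher, with a log2 change of 3.61 ± 0.67 (adjusted p = 0.00566). Without replicate 1 the untreated mice held 2 reads of Sprr1a and the naphthalene mice 114, a ratio of 36.6 (95% exact Clopper-Pearson interval 9.90 to 306, counting error only). Clu, the secreted chaperone clusterin, was at 204, 161 and 186 CPM in naphthalene lungs, against 61.5, 53.8 and 82.8 CPM in untreated lungs. Its change of 1.48 ± 0.25 (adjusted p = 0.00189) equalled that of day 2 (1.48). The EGF receptor ligands Ereg and Areg rose by 3.08 and 1.39 with all libraries (adjusted p = 0.00722 and 0.0439) and had adjusted p-values of 0.0692 and 0.225 without replicate 1. Areg was 3.99 higher at day 2, and its difference between the days was -2.59 (adjusted p = 0.029; 0.0587 without replicate 1). Keratins 7, 8, 18 and 19 had changes of 0.21 to 0.99 that did not pass. None of the 10 basal cell genes was called at day 5, against 2.39% of all genes tested, and 3 were higher at day 2.

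Several genes that start multiciliation were higher at day 5, and some of these had been lower at day 2. Of 12 ciliogenesis regulators, 4 rose at day 5 and none fell, 2 of them also without replicate 1, while at day 2 Foxj1 rose and Mcidas, Cdc20b and Gmnc fell. The median of the list was 0.25 at day 5 and -0.09 at day 2. Mcidas, the multicilin that starts the programme, was at 3.98, 4.19 and 4.30 CPM in naphthalene lungs of day 5, against 1.02, 0.843 and 0.533 CPM in untreated lungs. The groups were well apart, with a log2 change of 2.39 ± 0.46 (adjusted p = 0.00722) and of 2.6 without replicate 1 (adjusted p = 0.0437). At day 2 Mcidas was at 0.319, 0.110 and 0.254 CPM in naphthalene lungs, against 2.29, 1.28 and 0.985 CPM in untreated lungs, so the order of the groups was the opposite. At day 7 the values were 0.719, 0.378 and 1.38 CPM in naphthalene lungs and 0.497, 0.897 and 1.10 CPM in untreated lungs, which overlapped. The day 5 minus day 2 difference of the effect was 5.10 ± 0.71 (adjusted p = 0.00025), and 5.31 (adjusted p = 0.000817) without replicate 1.

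Cdc20b, a protein of the deuterosomes, was at 2.78, 2.06 and 3.30 CPM in naphthalene lungs of day 5, against 0.218, 0.141 and 0.587 CPM in untreated lungs. It rose by 3.01 ± 0.55 (adjusted p = 0.00433; 0.0622 without replicate 1). At day 2 it had 1 read over the 3 naphthalene libraries and 37 over the 3 untreated ones, a ratio of 0.0292 (95% exact Clopper-Pearson interval 0.00072 to 0.173). Foxn4, a forkhead factor required for multiciliated cells in Xenopus, was at 1.96, 2.24 and 2.67 CPM in naphthalene lungs, against 0.291, 0.703 and 0.427 CPM in untreated lungs. Its log2 change was 2.26 at day 5 (adjusted p = 0.00759) and -3.15 at day 2. Ccna1, cyclin A1, was at 3.73, 5.58 and 4.93 CPM in naphthalene lungs, against 1.38, 1.90 and 1.55 CPM in untreated lungs. Its log2 change was 1.56 at day 5 (adjusted p = 0.0201) and -2.15 at day 2. Neither Foxn4 nor Ccna1 was called at day 5 without replicate 1. Foxn4 and Ccna1 were in no list and were chosen after their values were seen. The day 5 minus day 2 differences of Mcidas, Cdc20b, Foxn4 and Ccna1 were called in each of 14 alternative fits, which included leaving out each of the 12 libraries compared.

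Ccno, the cyclin O of centriole amplification, was at 8.35, 8.01 and 8.65 CPM in naphthalene lungs, against 2.47, 3.30 and 4.27 CPM in untreated lungs. It rose by 1.31 ± 0.27 (adjusted p = 0.0127; 0.14 without replicate 1). Deup1, which builds the deuterosomes from which centrioles bud, was at 5.12, 5.16 and 6.34 CPM in naphthalene lungs, against 1.96, 1.41 and 1.49 CPM in untreated lungs. Its change of 1.77 ± 0.35 (adjusted p = 0.00759) also passed without replicate 1 (1.93, adjusted p = 0.0437), and at day 2 it had been -0.08. Nek2, a centrosomal kinase, was at 14.0, 16.1 and 15.8 CPM in naphthalene lungs, against 6.47, 6.82 and 6.40 CPM in untreated lungs, and rose by 1.22 ± 0.22 (adjusted p = 0.00433). Crocc2, a ciliary rootlet family gene chosen after its values were seen, rose by 1.39 (adjusted p = 0.00752; 0.115 without replicate 1). The remaining regulators did not pass at day 5. Foxj1, the main activator of motile cilium genes, had a change of 1.2 (adjusted p = 0.0709), against 1.68 at day 2, where it was called. Gmnc had a change of 0.38, and Rfx2, Rfx3, Trp73, Myb, E2f4 and E2f5 lay between -0.23 and 0.12.

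**Figure D2:**
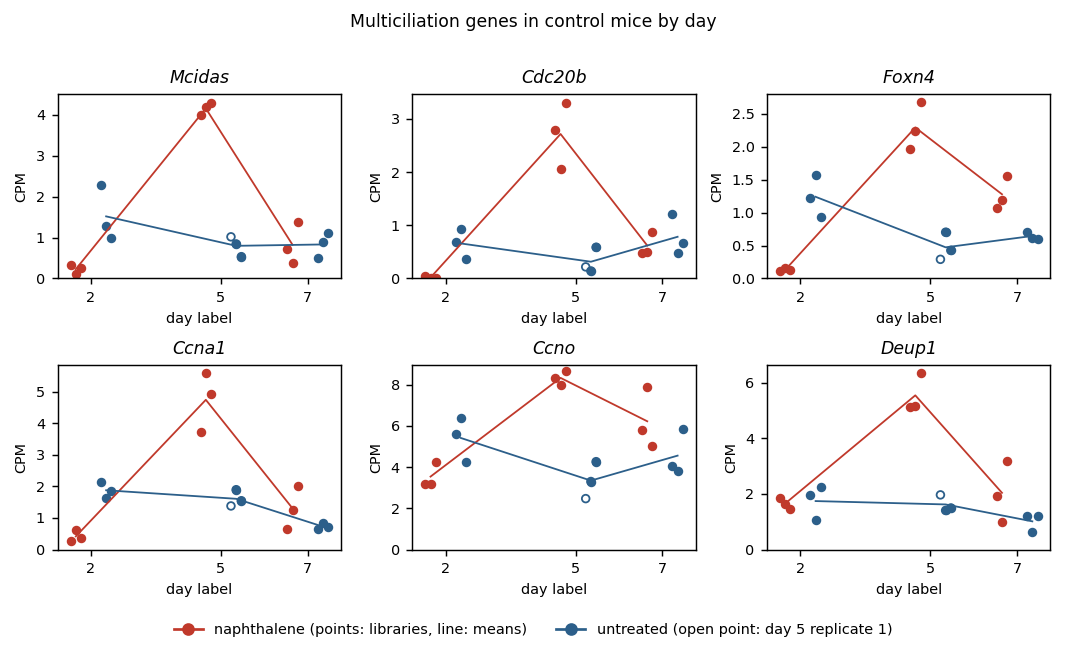
CPM of 6 multiciliation genes in control mice at days 2, 5 and 7, naphthalene (red) left of untreated (blue), with 3 libraries per group as points and lines through the means. Mcidas, Cdc20b, Foxn4 and Ccna1 lie below the untreated libraries at day 2 and above them at day 5.

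Genes for the parts of the moving cilium had another course. Of 22, 8 rose at day 5 and none fell (1 without replicate 1), against 13 at day 2, and the medians were 0.63 and 1.14. Fam183b, a cilia-associated protein, was at 7.78, 7.22 and 5.61 CPM in naphthalene lungs, against 3.20, 3.02 and 2.83 CPM in untreated lungs. It rose by 1.19 ± 0.22 (adjusted p = 0.00638), and by 1.23 without replicate 1 (adjusted p = 0.0437). The radial spoke genes Rsph1 and Rsph4a rose by 0.88 and 1.03, and the dynein intermediate chain Dnai2 by 0.72, with all libraries. Tppp3, a tubulin-binding protein, had a change of -0.05. No gene of this list was called in the test of day 5 minus day 2, against 3 of the 12 regulators and 0.199% of all genes. For a list of 22, none called is near that share.

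Over all genes, 41 differed between the effects at day 5 and day 2 (0.199%), 26 higher and 15 lower, and 13 (0.0632%) without replicate 1, of which 12 were shared. Syt8, a synaptotagmin, was the clearest in the other direction. It was at 0.380, 0.364 and 0.367 CPM in naphthalene lungs of day 5, against 0.873, 0.913 and 0.533 CPM in untreated lungs. At day 2 it was at 7.18, 8.13 and 9.96 CPM in naphthalene lungs, against 0.292, 0.407 and 0.674 CPM in untreated lungs. The difference was -5.21 (adjusted p = 9.4e-05), and it was called in each of the same 14 alternative fits.

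Scd1, the desaturase that makes monounsaturated fatty acids, was at 2189, 2020 and 2076 CPM in naphthalene lungs, against 408, 234 and 476 CPM in untreated lungs. The naphthalene values were close to each other, and the change was 2.49 ± 0.41 (adjusted p = 0.00157) and 2.56 without replicate 1. It was the only called member of the 15 fatty acid synthesis genes, of which 14 had values above 0 (median 0.56). Fasn and Scd2 had changes of 0.97 and 0.91 (adjusted p = 0.0818 and 0.0851). At day 2 Scd1 had a change of 0.02, and the difference between the days was 2.47 (adjusted p = 0.0512).

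All 15 alveolar type 2 genes had values above 0 at day 5, with a median of 0.85 (0.68 without replicate 1). Scd1, which this list shares with fatty acid synthesis, the chemokine Cxcl15 and the fatty acid binding protein Fabp5 rose, and of these Scd1 also did so without replicate 1. Sftpc, the surfactant protein of these cells, was at 18943, 16155 and 14498 CPM in naphthalene lungs, against 6430, 4847 and 13403 CPM in untreated lungs. Untreated replicate 3 was close to the naphthalene lungs and replicates 1 and 2 were low, so the change of 1.01 did not pass (adjusted p = 0.0836). The low Sftpc values are those of the 2 libraries with high Neat1. Without these 2 the change was 0.31 (adjusted p = 1), and without untreated replicate 3 it was 1.57 (adjusted p = 0.00623).

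Among matrix genes, Lum, the collagen-binding proteoglycan lumican, was at 11.9, 17.4 and 11.4 CPM in naphthalene lungs, against 4.51, 3.79 and 4.80 CPM in untreated lungs. It rose by 1.63 ± 0.26 (adjusted p = 0.00141), and by 1.65 without replicate 1 (adjusted p = 0.0179). Untreated control lungs had mean Lum levels of 4.84 CPM at day 2 and 11.8 CPM at day 7. Dcn, the related proteoglycan decorin, rose by 0.85 with all libraries (adjusted p = 0.0226). These were 2 called of 23 fibroblast and matrix genes (median 0.59, and 0.42 without replicate 1). Col1a1 and Col3a1, chains of fibrillar collagen, had changes of 0.64 and 1.00 that did not pass.

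**Figure D3:**
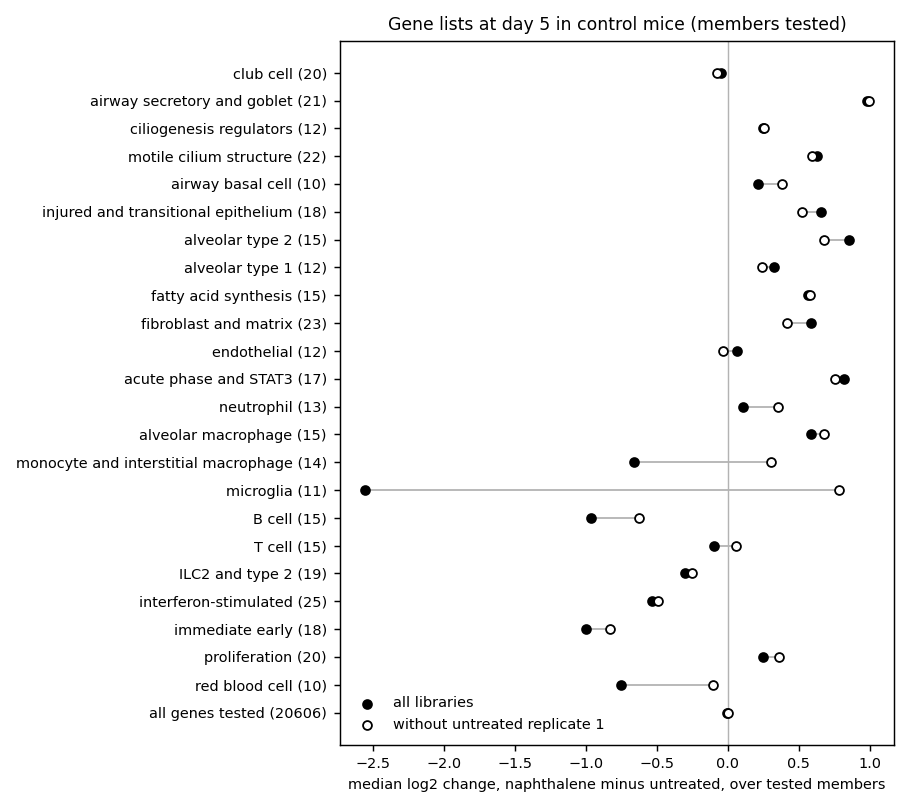
Median log2 change at day 5, naphthalene minus untreated, over the tested members of 23 gene lists and over all genes, with all libraries (filled) and without untreated replicate 1 (open). The microglia list has medians of -2.56 and 0.78, while the secretory and cilium lists have nearly the same median in both.

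B cell genes were lower with all libraries. All 15 of them had values below 0 and 6 fell, with a median of -0.96, but none was called without replicate 1 (median -0.63). Cd79b, a signalling chain of the B cell receptor, was at 31.6, 33.6 and 29.1 CPM in naphthalene lungs, against 118, 52.2 and 58.8 CPM in untreated lungs. The groups did not overlap, untreated replicate 1 was the highest, and the change was -1.28 ± 0.25 (adjusted p = 0.00752), and -0.82 without replicate 1 (adjusted p = 0.175). Cd79a, the other signalling chain, fell by 1.31 with all libraries. The summed B cell list was 345 to 389 CPM in naphthalene libraries and 1081, 639 and 553 CPM in untreated replicates 1, 2 and 3. None of the 15 T cell genes was called, against 2.39% of all genes tested (median -0.096, and 0.054 without replicate 1). Il7r, the interleukin 7 receptor of lymphocytes and ILC2s, had a change of -1.48 (adjusted p = 0.0542). Rora had one of -0.21 and Il1rl1, the interleukin 33 receptor, one of -0.98. Only Areg and Calca, a peptide of neuroendocrine cells, were called among the 19 genes of the ILC2 and type 2 list, both higher, and neither without replicate 1.

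Immediate early genes, which cells switch on within minutes of stimulation, were all below 0 (18 of 18, median -0.996, and -0.83 without replicate 1). Only Atf3 fell, with 8.98, 6.92 and 7.18 CPM in naphthalene lungs, against 22.1, 19.3 and 20.9 CPM in untreated lungs. Its change was -1.43 ± 0.37 (adjusted p = 0.0381; 0.186 without replicate 1). None of 25 interferon-stimulated genes and none of 20 proliferation genes was called, against 2.39% of all genes tested. Of the interferon-stimulated genes, 22 had values below 0 and 3 above (median -0.531, and -0.49 without replicate 1). Of the proliferation genes, 15 had values above 0 and 5 below (median 0.25, and 0.358 without replicate 1). Prdm8, a histone methyltransferase family gene, was at 7.84, 11.5 and 8.91 CPM in naphthalene lungs, against 48.0, 29.9 and 21.6 CPM in untreated lungs. It fell by 1.81 ± 0.30 (adjusted p = 0.00157), and by 1.45 without replicate 1. Atp2b2, a calcium pump of the cell membrane, fell by 1.21 ± 0.23 (adjusted p = 0.00729). Other genes called without replicate 1 were Sncg, Klk10, Wfdc3, Wfdc13, AU040972, Gm867 and Ncam1, all higher, with log2 changes of 1.07 to 2.58 with all libraries. Ncam1 did not differ in this way in the other groups. In control mice its means were 3.18 CPM in naphthalene and 4.23 CPM in untreated lungs at day 2, and 5.86 and 5.85 CPM at day 7. In KO mice of day 5 they were 4.10 and 3.94 CPM.

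**Figure D4:**
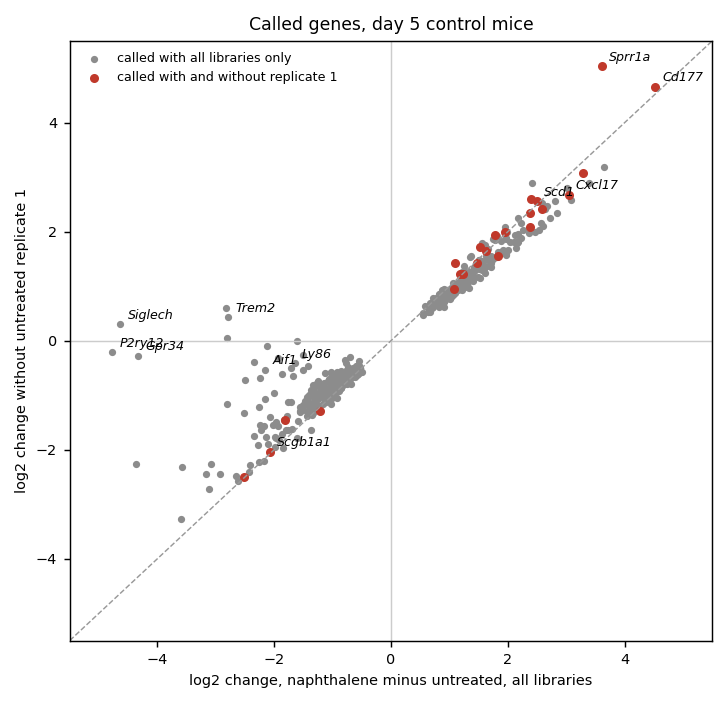
Log2 change of each called gene at day 5 with all libraries (x axis) and without untreated replicate 1 (y axis). Genes called both ways (red) lie near the diagonal, while P2ry12, Siglech, Gpr34 and Trem2 lie near 0 on the y axis.

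The effect of naphthalene at day 5 was set against that in KO mice of the same day, where 1.14% of genes were called higher and 0.18% lower. No gene of 20606 differed between the genotypes (0% by edgeR's test and 0 by DESeq2), and 1869 had an unadjusted p under 0.05 (1086 without replicate 1, again with none called). Lum had the smallest unadjusted p of the 23 genes called in both control fits, with a change of 1.63 in control mice and of 0.36 ± 0.26 in KO mice (difference 1.27 ± 0.36, adjusted p = 0.544). Deup1 had changes of 1.77 in control and 0.54 in KO mice (difference 1.24 ± 0.48), and Cd177 of 4.51 and 5.85 (difference -1.34 ± 0.58), each with an adjusted p of 0.544. Scgb1a1 fell in both, with a difference of 0.15 ± 0.37. Mcidas had means of 2.34 CPM in naphthalene and 1.03 CPM in untreated lungs of KO mice. A test that calls no gene does not show that the genotypes responded alike.

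**Figure D5:**
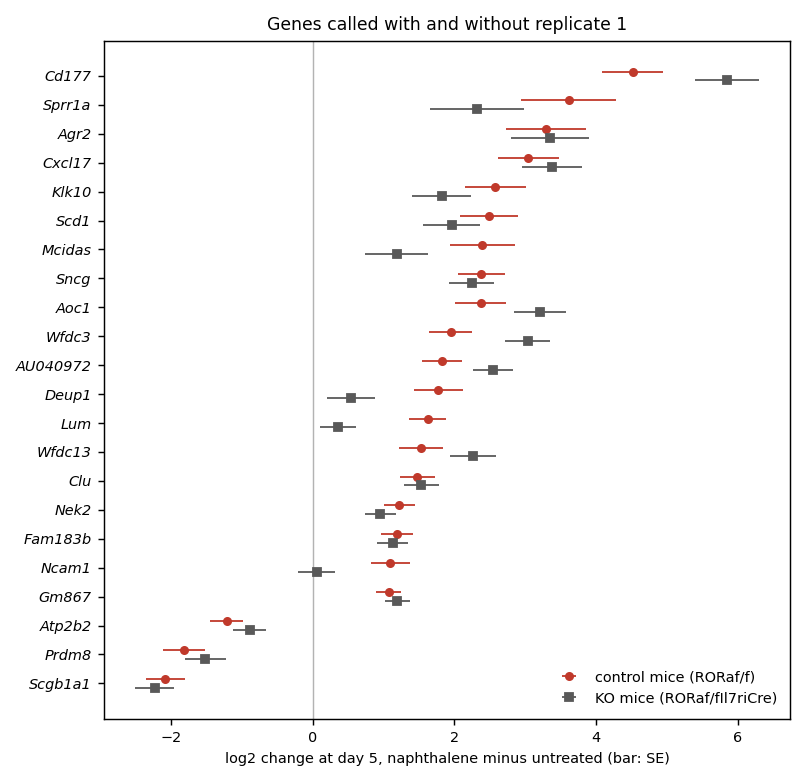
Log2 change at day 5 with its SE for 22 genes called with and without untreated replicate 1, in control mice (red circles) and KO mice (grey squares). Scgb1a1, Prdm8 and Atp2b2, which fell in control mice, lie below 0 in KO mice. Lum, Deup1, Ncam1 and Mcidas are among the genes that lie nearer to 0 in KO mice.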

How the data were processed

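The labels describe Trizol extraction from a homogenate of chopped whole lung and a Watchmaker Genomics mRNA kit. The authors deposited a table of unnormalised counts per gene for 57186 mouse genes and 35 libraries, all of them mapped to a sample. The submitters' processing notes name GRCm39 and DESeq2 without a role. Aligner and counting program: not given in the sources used here. RefSeq promoters are of build GRCm38.p6, so no other positions are given.

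Deposited counts were fitted in R 4.3.3 with edgeR 4.0.16: filterByExpr, TMM scaling, 12 group means over 35 libraries (23 residual degrees of freedom), robust quasi-likelihood F-test, two-sided, Benjamini-Hochberg over all genes tested, threshold 0.05. The tests were the naphthalene effect at day 5 in control mice, its difference from day 2 and its difference from KO mice, each with and without untreated replicate 1. CPM are TMM-scaled. Alternatives used limma 3.58.1 and DESeq2 1.42.0. On simulated data with 200 changed genes, the day 5 test called 56% of genes changed 2-fold and 91% of those changed 4-fold (149 calls, 2 of them false). Without replicate 1 the shares were 41% and 93% (145 calls, 11 false). Simulated counts were drawn independently for each gene in 1 run. They held neither the shared shift of untreated replicates 1 and 2 nor the microglia transcripts of replicate 1. Their false calls therefore do not measure those among the real calls.

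The libraries, the 43 gene lists and the rules were chosen with earlier results of these data known. Named genes are those called without untreated replicate 1. Added to them are the 12 largest increases and 12 largest decreases among called genes of at least 5 CPM in 1 group with a real symbol and no overlap. From each list come its called genes plus its 2 most abundant genes. The rule also takes the 5 clearest genes of each difference test and the 10 genes highest in untreated replicate 1 relative to the other libraries. Some of these are not reported here. Gene lists are described by counts and medians. Same-numbered libraries deviated from their group means with correlations of 0.15, -0.342 and -0.254, and different-numbered ones with -0.117 to 0.423. With 3 libraries per group and untreated replicates 1 and 2 apart from replicate 3, these values cannot show whether the numbers pair samples. The labels name nothing that same-numbered libraries share, so the main fit has no replicate block. For genes with at most 3 reads in a group, the ratio of summed reads, scaled to depth, has a 95% interval. Totals per library were 13.1 to 19.1 M counts. Alternatives were libraries left out, DESeq2, RLE scaling, other filters, other untreated mice as reference, voom with sample weights, a replicate block and a sex term; the last, the pair of untreated libraries left out together and the other days' or KO libraries left out were chosen after seeing the data.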

Additional observations from a re-analysis of the deposited data

Results flagged for a closer look

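The effect of naphthalene in control mice differed between day 5 and day 2 for 12 genes by edgeR's test of the difference, both with all libraries and without untreated replicate 1 of day 5. Higher at day 5 than at day 2 were Cdc20b (difference of log2 changes 7.65), Foxn4 (5.41), Mcidas (5.10), the E3 ligase family gene Lonrf2 (4.37), Upk3a (3.85), Ccna1 (3.71) and the cartilage matrix protein Chad (2.84). Lower were Syt8 (-5.21), the chloride channel regulator Clca3a1 (-3.37), AU040972 (-1.76), the angiogenic factor Pgf (-1.74) and the adhesion protein Amigo2 (-1.46).

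Cdc20b, Foxn4, Mcidas, Ccna1 and Syt8 were called in each of 14 alternative fits, 12 of which left out 1 library. Chad and Upk3a were called in 10 of those 12, Lonrf2 in 8, Clca3a1 in 7, Pgf and Amigo2 in 5 each and AU040972 in 4. Of the 7 that were higher at day 5 than at day 2, Mcidas, Cdc20b, Foxn4, Ccna1 and Upk3a rose at day 5 with all libraries. Only Mcidas among these was also called at day 5 without untreated replicate 1. Chad and Lonrf2 had day 5 changes of 0.34 and 0.74 that did not pass and had fallen at day 2 by 2.50 and 3.63.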

How the results depend on the processing

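For the naphthalene effect at day 5 in control mice, 492 genes were called, and the 23 called without untreated replicate 1 were a subset of them. Leaving out 1 of the 6 libraries gave 23 to 3544 calls, the lowest without untreated replicate 1 and the highest without untreated replicate 3. Without untreated replicate 2 it was 154, and without naphthalene replicates 1, 2 and 3 it was 81, 61 and 95. DESeq2 called 1329 (127 without untreated replicate 1), no filter on low counts 2118, voom with sample weights 4953 (7 without untreated replicate 1), and the 6 libraries alone 26. A reference of untreated day 5 mice of both genotypes gave 285, and of control mice of 3 day labels without untreated replicate 1 300. Added after seeing the data, leaving out both untreated replicates 1 and 2 gave 3 and a sex term 1024. With the replicate block, which no label calls for, the 6 libraries gave 9 calls and the day 5 minus day 2 test 37. That test gave 41 calls, 234 by DESeq2, and 5 to 541 with 1 of its 12 libraries left out (13 without untreated replicate 1, highest without Untr_2_C replicate 3). The test of control minus KO mice gave 0 in every fit run.

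Signs reversed for 5 genes, all of them high in untreated replicate 1. With 1 of the 6 libraries left out, log2 changes ran from -5.196 to 0.296 for Siglech, -3.313 to 0.424 for Trem2, -3.369 to 0.599 for Gm3362 and -3.338 to 0.041 for Nav3, each highest without untreated replicate 1. By DESeq2 without it, Siglech was at 0.291, Trem2 at 0.418, Gm3362 at 0.604 and Nav3 at 0.035. Against 3 day labels without it, Siglech was at 0.673, P2ry12 at 0.006, Trem2 at 0.106 and Gm3362 at 0.418. By voom without it, Siglech was at 0.383, Trem2 at 0.573 and Gm3362 at 0.376. Without untreated replicates 1 and 2, Siglech was at 0.726, Trem2 at 0.388, Gm3362 at 1.00 and Nav3 at 0.353. The cause of the other shifts was not tested.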

Other observations

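Of 10 cardiac muscle genes, 3 rose at day 5 with all libraries (Myl7, Mb and Nppa) and none was called without untreated replicate 1. Actc1 and Tnnt2, genes of the heart's contractile fibres, had log2 changes of 0.19 and 0.11 that did not pass (edgeR adjusted p = 0.638 and 0.848). Myl7, the atrial myosin light chain, was at 60.7, 64.1 and 48.0 CPM in naphthalene lungs, against 27.6, 8.57 and 30.5 CPM in untreated lungs, a log2 change of 1.37 ± 0.34 (edgeR adjusted p = 0.0327; 0.129 without untreated replicate 1). Untreated libraries of the other 5 groups had mean Myl7 levels of 44.4 to 72.7 CPM, above the mean of 22.2 CPM over these 3 untreated lungs. The glucocorticoid target Zbtb16 was at 113, 155 and 190 CPM in naphthalene lungs, against 13.5, 26.6 and 25.5 CPM in untreated lungs, a change of 2.80 ± 0.55 (adjusted p = 0.00963; 0.113 without untreated replicate 1). It was the 1 called member of 19 glucocorticoid target genes. Untreated control lungs had mean Zbtb16 levels of 36.0 CPM at day 2 and 192.9 CPM at day 7. Naphthalene lungs of control mice had a mean of 122.5 CPM at day 7, below the untreated mean of that day.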
